A study of Mus musculus with 20 samples.

Results

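The 10 genes described here carry the main steps of hepatic bile acid synthesis and its feedback control, namely Cyp7a1, Cyp8b1, Cyp27a1, Cyp7b1, Hsd3b7, Akr1d1, Baat, Slc27a5, Nr1h4 and Nr0b2. They were chosen by gene symbol, without use of any measured level, and are 10 of the 32400 Ensembl genes in a table of mouse liver mRNA counts. The 20 libraries came from C57BL/6NTac liver and form 3 groups. Mice of the chow control group (n = 5) had no treatment and ate standard chow. The HFHF control group (n = 7) received vehicle (PBS) and a diet high in fat and fructose. The HFHF Flcn gRNA group (n = 8) received a guide RNA against Flcn, which encodes the RagC/D GTPase-activating protein folliculin, carried by adeno-associated virus serotype 8 (AAV8), with the same diet. The labels of these groups give no age, sex, length of diet, time of collection, guide position or source of the nuclease, and they do not say whether each library is a separate mouse, so p-values measure the spread between libraries. The vehicle group received no virus and the chow group no injection, so virus and guide cannot be told apart, nor can diet and injection. Changes described below as with diet are differences of HFHF control from chow, with no cause assigned.

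Hepatocytes turn cholesterol into bile acids by a classic pathway, which starts with 7-alpha-hydroxylation by CYP7A1, and by an alternative pathway, which starts with side-chain oxidation by CYP27A1 and continues through CYP7B1. Both converge on shared steps of the steroid ring, after which the side chain is activated and joined to taurine or glycine. Bile acids activate the nuclear receptor FXR, which in liver induces the repressor SHP and in ileum the hormone FGF15, and both lower Cyp7a1 and Cyp8b1 expression.

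Promoter sequence was at hand for 6 of the 10 genes (Cyp27a1, Nr0b2, Akr1d1, Hsd3b7, Cyp8b1 and Nr1h4), from RefSeq on build GRCm38.p6. Each window of 300 bases, from 250 before to 50 after the gene's start, was searched on both strands. The same short elements, read by nuclear receptors or by MiT/TFE and clock factors, were sought in all windows. The stretches upstream of the start are printed for Nr0b2 (chr4:133553126-133553375, plus strand), Cyp8b1 (chr9:121916306-121916555, minus strand) and Akr1d1 (chr6:37529923-37530172, plus strand), because they held exact matches and stand for the feedback arm, the classic pathway and the shared steps. They run 5′ to 3′ along the gene, and capitals mark the matches.
Nr0b2: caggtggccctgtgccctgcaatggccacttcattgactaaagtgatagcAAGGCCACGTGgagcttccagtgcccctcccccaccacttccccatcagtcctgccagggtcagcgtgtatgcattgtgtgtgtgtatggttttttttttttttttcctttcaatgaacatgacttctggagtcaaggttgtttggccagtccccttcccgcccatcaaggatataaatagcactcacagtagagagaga
Cyp8b1: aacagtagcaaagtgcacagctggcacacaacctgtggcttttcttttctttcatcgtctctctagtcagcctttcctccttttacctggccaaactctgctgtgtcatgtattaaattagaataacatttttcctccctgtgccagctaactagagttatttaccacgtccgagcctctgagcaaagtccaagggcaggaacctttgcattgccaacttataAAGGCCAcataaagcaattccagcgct
Akr1d1: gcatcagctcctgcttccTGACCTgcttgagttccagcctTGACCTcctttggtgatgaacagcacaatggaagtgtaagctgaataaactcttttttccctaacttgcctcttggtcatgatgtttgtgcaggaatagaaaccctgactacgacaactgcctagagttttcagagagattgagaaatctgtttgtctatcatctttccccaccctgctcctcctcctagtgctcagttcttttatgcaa
The Nr0b2 stretch held AAGGCCA, one of 2 spellings searched for LRH-1 (the product of Nr5a2), from 200 to 194 bases before the start, overlapping CACGTG, the core read by MiT/TFE and clock factors, from 195 to 190 bases before it. The Cyp8b1 stretch held AAGGCCA from 27 to 21 bases before the start. The Akr1d1 stretch held the nuclear receptor half-site AGGTCA on the opposite strand, printed there as TGACCT, at 232 to 227 and 210 to 205 bases before the start. The Nr1h4 window (its upstream part at chr10:89506659-89506908, minus strand) lies inside the gene as annotated in GENCODE, at an internal start. It held the same half-site 214 to 209 bases before that start, inside a direct repeat with 1 base between (AGGTCANAGGTCA) that had 2 mismatches. No match was found in the Cyp27a1 and Hsd3b7 windows, and the inverted repeat read by FXR (AGGTCANTGACCT), with up to 2 mismatches, was in none of the 6. Of all 32851 windows in the table, 10.6% held AAGGTCA or AAGGCCA, 7.15% CACGTG, 16.3% AGGTCA, 3.86% the direct repeat with up to 2 mismatches and 1.14% the inverted repeat with up to 2 mismatches. These are matches of letters and no measure of binding. Sequence outside the windows of 300 bases was not searched, so elements farther upstream, the inverted repeat included, would have been missed.

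Levels are given as CPM, counts scaled to a common library total, with the totals adjusted by trimmed-mean (TMM) scaling. Total counts ran from 13974379 to 19586576 per library. Each adjusted p below is a Benjamini-Hochberg value over the 13667 genes tested in edgeR's quasi-likelihood fit across all 3 groups, a gene being called at an adjusted p under 0.05. Log2 fold changes carry their standard errors (SE). Flcn itself averaged 22.2 ± 6.03 CPM in chow (SD, n = 5), 20.7 ± 2.98 in HFHF control (SD, n = 7) and 17.8 ± 2.40 in gRNA libraries (SD, n = 8). The fall of Flcn mRNA from HFHF control to gRNA libraries did not pass (log2 fold change -0.22, SE 0.12, adjusted p = 0.140), and mRNA level does not show whether the gene was edited. Hepatocyte markers were abundant in every library, with 7 markers summing to 88720 to 110586 CPM in chow, 57912 to 79032 in HFHF control and 61505 to 94694 in gRNA libraries. In bulk liver, fewer cells of a type and less RNA per cell cannot be told apart. The title of gRNA replicate 8 differs in its second field from those of all other libraries. Without it, 10 of the 10 genes passed between HFHF control and chow, 6 between gRNA and HFHF control and 7 between gRNA and chow libraries.

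All 10 genes were lower in HFHF control than in chow liver and passed the test, where 28.9% of all genes tested were called lower and 28.1% higher. Their median log2 fold change was -0.92, beside -0.01 over all genes tested. For 7 of the 10, every HFHF control library lay below every chow library, which held for 18.1% of all genes tested. The groups overlapped for Cyp7a1, Nr1h4 and Nr0b2. Between gRNA and HFHF control libraries 6 of the 10 genes were higher and none was lower, where 19.6% of all genes tested were called higher and 19% lower. The 6 were Cyp8b1, Hsd3b7, Akr1d1, Baat, Slc27a5 and Nr1h4, and the 10 genes had a median log2 fold change of 0.46, beside 0.01 over all genes tested. All 10 overlapped between these groups, where 5.04% of all genes tested had every gRNA library above and 6.01% every gRNA library below the HFHF control libraries. Compared with chow, 8 of the 10 stayed lower in gRNA libraries (21.7% of all genes tested were called lower), and Cyp7a1 and Nr1h4 did not pass. For 6 of the 10 every gRNA library lay below every chow library, against 8.98% of all genes tested. The 3 comparisons share their libraries pairwise, so their values are given side by side and are not independent of each other.

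**Figure D1:**
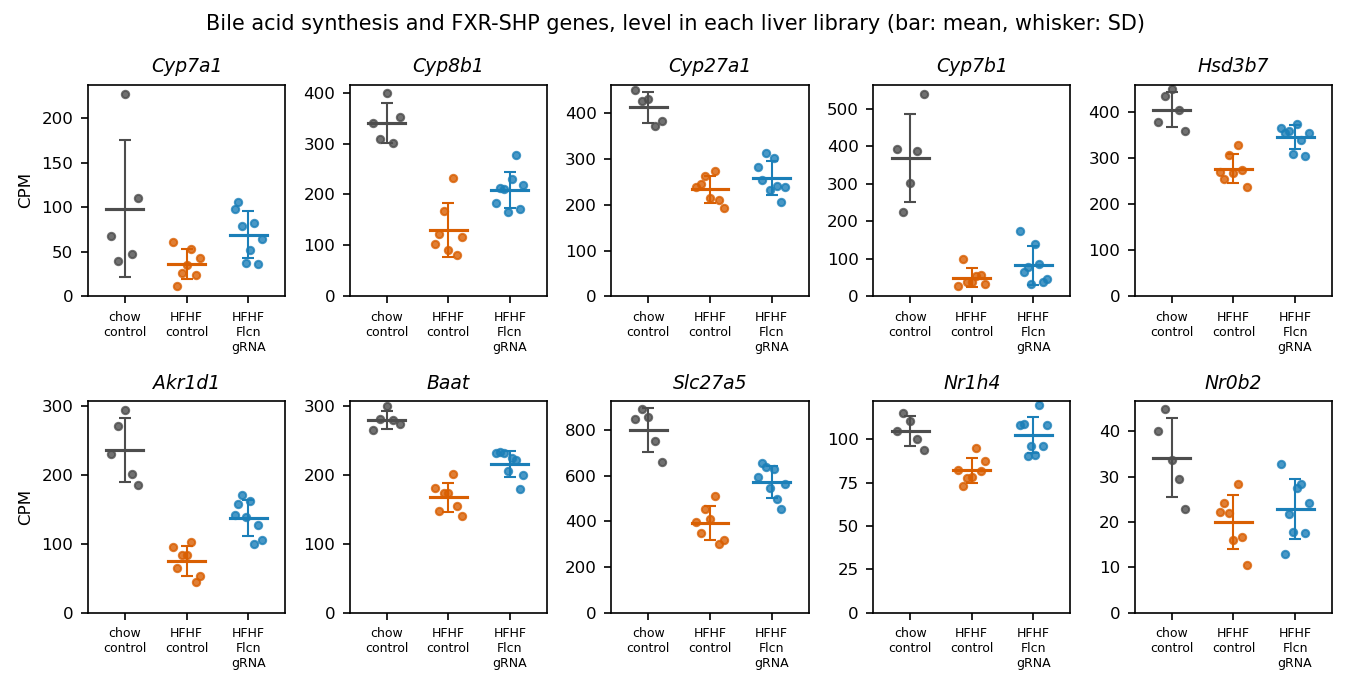
Level of each of the 10 genes in CPM (vertical axes, linear from 0) in each chow control (n = 5), HFHF control (n = 7) and HFHF Flcn gRNA (n = 8) library; each point is 1 library, the bar is the group mean and the whisker the SD. The HFHF control mean is the lowest of the 3 in every panel, and 1 chow library stands at 227 CPM for Cyp7a1.

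**Figure D2:**
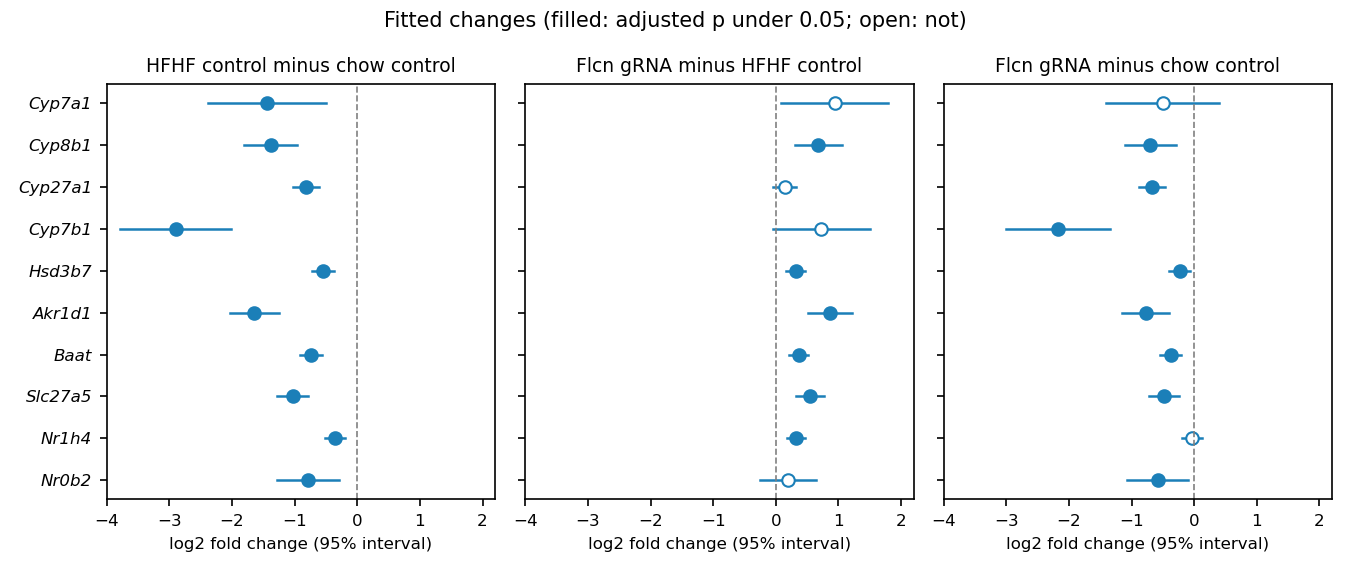
Fitted log2 fold change (horizontal axis) of each gene in the 3 comparisons, with its 95% interval; filled points have an adjusted p under 0.05 in edgeR's quasi-likelihood test and open points do not. The 10 points are filled and left of 0 between HFHF control and chow, and 6 are filled and right of 0 between gRNA and HFHF control.

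Cyp7a1 (ENSMUSG00000028240, chr4:6265612-6275633, minus strand, GRCm38) encodes cholesterol 7-alpha-hydroxylase, the rate-limiting enzyme of the classic pathway. Its level in the 5 chow libraries was 67.6, 39.6, 227, 47.5 and 110.5 CPM. Levels in HFHF control ran from 11.2 to 60.6 CPM with a median of 34.7, and the gRNA libraries from 36.0 to 106 with a median of 71.5. Chow replicate 3 was the highest of all 20 libraries, the chow and HFHF control groups overlapped, and 5 of the 8 gRNA libraries lay above every HFHF control library. Cyp7a1 fell from chow to HFHF control by 1.45 on the log2 scale (SE 0.45, adjusted p = 0.0104). Without chow replicate 3 the log2 fold change was -0.84 with an adjusted p of 0.0925, the only one of 25 alternatives in which the call was lost (range 0.00432 to 0.0925). The difference between gRNA and HFHF control libraries was 0.94 (SE 0.40, 95% interval 0.09 to 1.79, unadjusted p = 0.0323, adjusted p = 0.0759) and was not called. It passed in 2 of 25 alternatives, namely without chow replicate 3, which shares the fit's estimate of spread (adjusted p = 0.0421), and with only both HFHF groups in the fit (adjusted p = 0.0453), with a range of 0.0421 to 0.140. Against chow, the gRNA libraries differed by -0.50 (adjusted p = 0.365), and by 0.09 without chow replicate 3.

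Cyp7a1 was among the most variable genes within groups. The SD of its log2 CPM was 1.02 in chow, 0.82 in HFHF control and 0.60 in gRNA libraries, against medians over all genes tested of 0.19, 0.18 and 0.22. In chow, 98.5% of the genes tested had a smaller SD, in HFHF control 98.1% and in gRNA libraries 92.2%. Baat stood at the other end in chow, with an SD of 0.065, below which 6.99% of the genes lay.

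Cyp8b1 (ENSMUSG00000050445, chr9:121914356-121916305, minus strand, in 1 exon) encodes the sterol 12-alpha-hydroxylase, which commits intermediates to cholic acid. In chow it stood at 341, 309, 400.1, 300.3 and 352 CPM. HFHF control values ran from 80.5 to 232 CPM with a median of 116, and the gRNA libraries from 166 to 277 with a median of 212. No HFHF control library reached the chow range, and the gRNA libraries lay below it as well. Cyp8b1 fell in HFHF control by 1.38 on the log2 scale (SE 0.20, adjusted p = 9.19e-06), to 38.3% of the chow level. It was higher in gRNA than in HFHF control libraries by 0.68 (SE 0.18, adjusted p = 0.00576) and lower than in chow by 0.71 (SE 0.19, adjusted p = 0.00661).

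Cyp27a1 (ENSMUSG00000026170, chr1:74713574-74737892, plus strand) encodes the mitochondrial sterol 27-hydroxylase that opens the alternative pathway. Its 5 chow values were 450.4, 427, 432, 372 and 384 CPM. Across HFHF control, values ran from 192 to 274 CPM (median 239) and the gRNA libraries from 205 to 313 (median 248). The ranges of both HFHF groups overlapped, and both lay wholly below chow. Cyp27a1 fell in HFHF control by 0.82 on the log2 scale (SE 0.10, adjusted p = 5.59e-07). The difference between gRNA and HFHF control libraries was 0.14 (95% interval -0.04 to 0.33, adjusted p = 0.223), and gRNA libraries were lower than chow by 0.68 (adjusted p = 1.11e-05).

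Cyp7b1 (ENSMUSG00000039519, chr3:18071950-18243338, minus strand) encodes the oxysterol 7-alpha-hydroxylase of the alternative pathway and had the largest diet difference of the 10. Its chow values were 394, 223, 301, 386 and 539 CPM. In HFHF control it ran from 27.1 to 99.1 CPM (median 38.3) and the gRNA libraries from 32.7 to 174 (median 70.2). Every library of both HFHF groups lay below the lowest chow library, and the gRNA libraries overlapped the HFHF control range and reached above it. Cyp7b1 fell in HFHF control by 2.90 on the log2 scale (SE 0.42, adjusted p = 1.45e-05), to 13.4% of the chow level. The gRNA difference from HFHF control, 0.73 (SE 0.37, adjusted p = 0.133, 95% interval -0.05 to 1.51), was not called. It passed in 1 of 25 alternatives, without HFHF control replicate 2, the library at 99.1 CPM (0.99, adjusted p = 0.0431, range 0.0431 to 0.307). The gRNA libraries stayed below chow by 2.17 (SE 0.40, adjusted p = 0.000292), at 22.2% of its level.

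The ratio of hydroxylases within a library does not depend on library scaling. The log2 ratio of Cyp8b1 to Cyp7a1 (CPM + 0.5) averaged 2.08 ± 0.85 in chow (SD, n = 5), 1.92 ± 0.88 in HFHF control (SD, n = 7) and 1.67 ± 0.52 in gRNA libraries (SD, n = 8), and none of the 3 differences passed an exact two-sided permutation test (adjusted p from 0.572 to 0.75 over 6 ratio tests). The log2 ratio of Cyp7b1 to Cyp7a1 averaged 2.14 ± 1.01 in chow (SD, n = 5), 0.49 ± 1.36 in HFHF control (SD, n = 7) and 0.11 ± 0.70 in gRNA libraries (SD, n = 8). In chow, 4 libraries lay between 2.28 and 3.01 and replicate 3, the library with the highest Cyp7a1, at 0.40. Against chow, the Cyp7b1 to Cyp7a1 ratio was lower in gRNA libraries by 2.03 on the log2 scale (exact permutation p = 0.00233, adjusted p = 0.0140). The difference of -1.65 between HFHF control and chow did not pass after adjustment (exact permutation p = 0.0480, adjusted p = 0.144). It was -2.08 without HFHF control replicate 2 (adjusted exact permutation p = 0.0325, range over 14 alternatives 0.0325 to 0.327). Between gRNA and HFHF control libraries the ratio differed by -0.38 (exact permutation p = 0.530, adjusted p = 0.636).

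**Figure D3:**
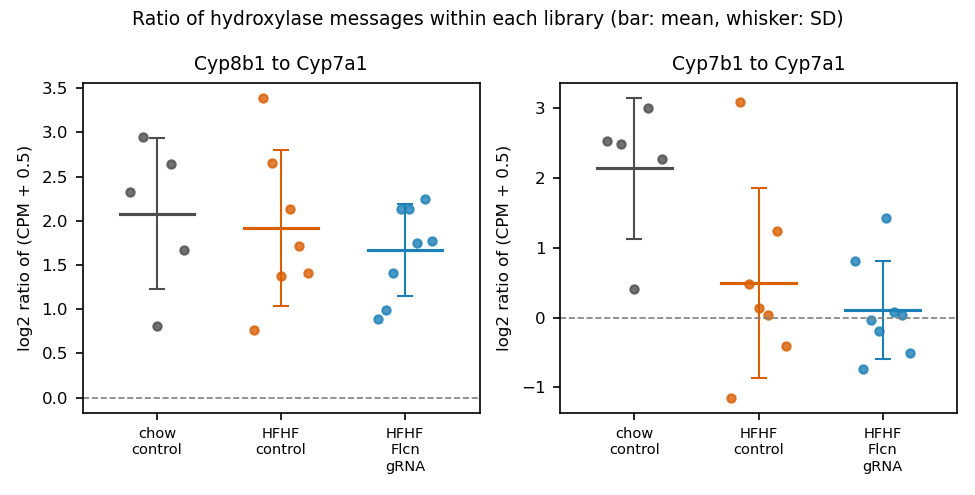
Log2 ratio of CPM + 0.5 (vertical axes) of Cyp8b1 to Cyp7a1 on the left and of Cyp7b1 to Cyp7a1 on the right; each point is 1 library of the chow control (n = 5), HFHF control (n = 7) or HFHF Flcn gRNA (n = 8) group, the bar is the mean and the whisker the SD. The 3 groups overlap on the left. On the right 4 of the 5 chow libraries lie at or above 2.28, and HFHF control replicate 2 lies above every chow library at 3.09.

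Hsd3b7 (ENSMUSG00000042289, chr7:127800604-127803802, plus strand) encodes the 3-beta-hydroxysteroid dehydrogenase that acts after 7-alpha-hydroxylation in both pathways. Of its 2769 exon bases, 1717 lie in exons of Gm49388 on the same strand and 1729 in 9430064I24Rik on the other, so its count is uncertain where reads were divided. It held 376, 433, 448, 403 and 357 CPM in chow. Levels in HFHF control ran from 236 to 328 CPM (median 268) and the gRNA libraries from 303 to 373 (median 354). Every HFHF control library was below chow, and 6 of the 8 gRNA libraries were above every HFHF control library. Hsd3b7 fell in HFHF control by 0.55 on the log2 scale (SE 0.08, adjusted p = 6.65e-06) and was higher in gRNA than in HFHF control libraries by 0.32 (SE 0.07, adjusted p = 0.00145). Its difference of -0.23 between gRNA and chow libraries passed (adjusted p = 0.0244) but was lost in 5 of 25 alternatives (adjusted p up to 0.130), among them those without chow replicate 2, 3 or 4.

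Akr1d1 (ENSMUSG00000038641, chr6:37530173-37568815, plus strand) encodes the 5-beta-reductase that sets the bent ring shape of bile acids. It held 229, 271, 294, 201 and 185 CPM in chow. HFHF control values ran from 44.8 to 103 CPM (median 82.9) and the gRNA libraries from 99.7 to 171 (median 139.7). The 3 groups formed steps, with 7 of the 8 gRNA libraries above every HFHF control library and all 8 below every chow library. Akr1d1 fell in HFHF control by 1.65 on the log2 scale (SE 0.19, adjusted p = 4.51e-07), to 31.9% of the chow level. It rose in gRNA over HFHF control libraries by 0.87 (SE 0.17, adjusted p = 0.000430), the largest called difference of the 10 in that comparison, and was lower than in chow by 0.78 (adjusted p = 0.00184).

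Slc27a5 (ENSMUSG00000030382, chr7:12988346-12998192, minus strand) encodes the bile acid-CoA ligase that activates the side chain. It held 849, 892, 855, 749.5 and 658 CPM in chow. Across HFHF control, values ran from 299.9 to 511 CPM (median 399) and the gRNA libraries from 453 to 656 (median 577). Slc27a5 fell in HFHF control by 1.03 on the log2 scale (SE 0.12, adjusted p = 2.52e-07), was higher in gRNA than in HFHF control libraries by 0.54 (SE 0.11, adjusted p = 0.000372) and stayed below chow by 0.49 (adjusted p = 0.00191). Baat (ENSMUSG00000039653, chr4:49489422-49506557, minus strand) encodes the transferase that joins the activated acid to taurine or glycine. Its chow values were 265, 281, 299, 279.7 and 275 CPM, the tightest group of the 10 genes in chow. In HFHF control it ran from 140.4 to 201 CPM (median 173) and the gRNA libraries from 179.9 to 234 (median 223). Baat fell in HFHF control by 0.74 on the log2 scale (SE 0.08, adjusted p = 1.50e-07), was higher in gRNA than in HFHF control libraries by 0.37 (SE 0.07, adjusted p = 0.000459) and stayed below chow by 0.37 (adjusted p = 0.000788). For both conjugation genes 6 of the 8 gRNA libraries lay above every HFHF control library and all 8 below every chow library.

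Nr1h4 (ENSMUSG00000047638, chr10:89454234-89533585, minus strand) encodes FXR, the bile acid receptor. It held 105, 116, 111, 100.1 and 93.8 CPM in chow. Levels in HFHF control ran from 73.2 to 95.1 CPM (median 81.7) and the gRNA libraries from 90.5 to 119.9 (median 102). Only the highest HFHF control library reached into the chow range, and 6 of the 8 gRNA libraries were above every HFHF control library. Nr1h4 fell in HFHF control by 0.35 on the log2 scale (SE 0.08, adjusted p = 0.000545), the smallest diet change of the 10. It was higher in gRNA than in HFHF control libraries by 0.32 (SE 0.07, adjusted p = 0.000969). Between gRNA and chow libraries the difference was -0.04 (95% interval -0.19 to 0.12, adjusted p = 0.732).

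Nr0b2 (ENSMUSG00000037583, chr4:133553376-133556536, plus strand) encodes SHP, a repressor with no DNA-binding domain that is a direct FXR target. It held 40.01, 44.9, 33.6, 29.5 and 23.0 CPM in chow. HFHF control values ran from 10.4 to 28.3 CPM (median 21.9) and the gRNA libraries from 13.0 to 32.8 (median 22.9). All 3 groups overlapped. Nr0b2 fell in HFHF control by 0.78 on the log2 scale (SE 0.24, adjusted p = 0.00858). The gRNA difference from HFHF control was 0.20 (SE 0.21, adjusted p = 0.501, 95% interval -0.25 to 0.65). Their difference of -0.59 from chow passed narrowly (adjusted p = 0.0477) and was lost in 19 of 25 alternatives (adjusted p up to 0.161).

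Levels can be compared between genes only per length, here as CPM per kilobase of exon. In chow, Slc27a5 led at 328 CPM per kilobase with no overlap with the next gene, Cyp27a1 at 190. Cyp8b1 (175), Cyp7b1 (170), Hsd3b7 (146) and Baat (144) followed, with ranges over libraries that overlapped their neighbours. Akr1d1 (81.5), Nr1h4 (45.6) and Nr0b2 (30.2) were each separate from the gene above, and Cyp7a1 (23.6), at the bottom, overlapped Nr0b2. In HFHF control Cyp7b1 had moved from the fourth place to the eighth, at 22.8 CPM per kilobase, and Cyp7a1 was again lowest at 8.66. In gRNA libraries Slc27a5 stood at 234 CPM per kilobase, Cyp7b1 at 37.8 and Cyp7a1 at 16.6, in the first, eighth and last places. Cyp7b1 ran from 12.5 to 45.8 in HFHF control and from 15.1 to 80.2 in gRNA libraries, overlapping Akr1d1, Nr1h4 and Nr0b2 in both. Cyp7a1 overlapped Nr0b2 in both groups, so the places of Cyp7b1 and Cyp7a1 there are orders of means only.

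**Figure D4:**
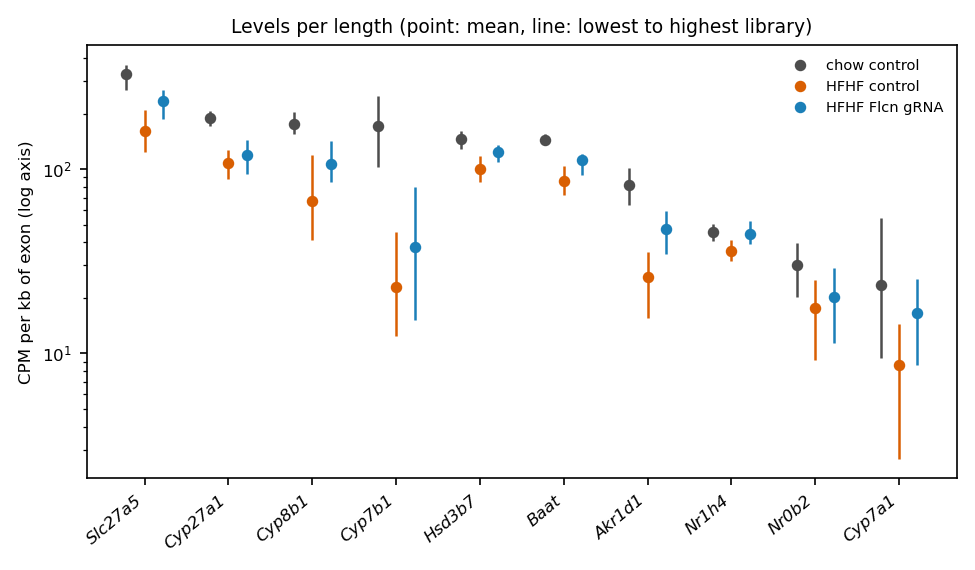
Level per kilobase of exon in CPM (vertical axis, log scale) for the 10 genes, ordered by their chow mean; points are group means and lines run from the lowest to the highest library of the chow control (n = 5), HFHF control (n = 7) and HFHF Flcn gRNA (n = 8) groups. Slc27a5 leads with a chow mean of 328 and Cyp7a1 is last with 23.6.

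The feedback arm was also read across libraries of one group. Within HFHF control (n = 7) Pearson's r between log2 CPM of Nr0b2 and Cyp7a1 was -0.12 (Spearman's rho 0.07), and within gRNA libraries (n = 8) it was 0.18 (rho 0.24). For Nr0b2 and Cyp8b1 r was 0.56 (rho 0.61) and 0.36 (rho 0.43), and for Nr1h4 and Nr0b2 -0.04 (rho 0.00) and 0.19 (rho 0.17). None of these 6 relations passed exact permutation over all pairings (smallest raw p = 0.194 for r and 0.167 for rho; adjusted p = 0.922 for every r and at least 0.898 for rho). Without the 2 libraries farthest from the median of the first gene, r ranged from -0.73 to 0.96, so the size and sign of these values depend on which libraries enter. With 5 libraries, chow was too small for the same reading.

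After each group's mean was subtracted, the genes most like a member over the 20 libraries were listed by Pearson's r of log2 CPM, as a description over 9399 genes compared. They were Marveld1 (0.81), Gtpbp8 (0.71) and Crtc2 (0.70) for Cyp7a1, and Acsm1 (0.78), Shmt2 (0.76) and Hsd17b10 (0.72) for Cyp8b1. For Cyp7b1 they were Serpina3k (0.93), Mup11 (0.93) and C6 (0.93), where Serpina3k and Mup11 belong to families of close copies whose reads are uncertain. Those for Nr0b2 included Khnyn (0.80) and Faf2 (0.80). Among the other members, the values for Cyp7a1 ran from -0.09 with Nr0b2 to 0.57 with Baat. The values for Nr0b2 ran up to 0.66 with Cyp27a1, and Cyp7a1 and Cyp7b1 stood at 0.02.

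Of 14 other enzymes and carriers of the synthesis pathway that were tested, 7 were lower and none higher in HFHF control than in chow (median log2 fold change -0.19), and 7 were higher and none lower in gRNA than in HFHF control libraries (median 0.24). Of all genes tested, 28.9% were called lower in the first comparison and 19.6% higher in the second. The diet count includes Slc27a2, an acyl-CoA synthetase, whose call was lost in 17 of 25 alternatives (adjusted p from 0.0137 to 0.190). Amacr, the racemase of side-chain shortening, averaged 98.3 CPM in chow, 66.6 in HFHF control and 80.1 in gRNA libraries, and passed in both comparisons (adjusted p = 3.53e-06 and 0.00509). Cyp2c70, which makes the muricholic acids of mice, averaged 586, 275 and 327 CPM. It fell with diet by 1.09 on the log2 scale (adjusted p = 0.000256), and its gRNA difference of 0.25 did not pass (adjusted p = 0.332). Cyp46a1, the cholesterol 24-hydroxylase known from brain, stood apart. It ran from 0.984 to 2.08 CPM in chow, from 1.28 to 3.24 in HFHF control and from 37.2 to 176 in gRNA libraries, with no overlap between the gRNA and the other groups (gRNA over HFHF control log2 fold change 5.20, SE 0.36, adjusted p = 1.69e-08). Ch25h was too low to be tested.

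Of 6 genes tested in the FGF15 to FGFR4 arm, which carries the ileal signal, 4 were lower in HFHF control than in chow (median -0.43). In gRNA over HFHF control libraries 3 were higher (median 0.14). Beside these stand 28.9% lower and 19.6% higher of all genes tested in the same comparisons. Klb, the co-receptor beta-Klotho, averaged 31.8, 16.7 and 25.7 CPM in chow, HFHF control and gRNA libraries. It fell with diet by 0.93 on the log2 scale (adjusted p = 9.73e-06), and the gRNA libraries all lay above the highest HFHF control value (log2 fold change 0.62, adjusted p = 0.000519). Fgfr4, the receptor itself, averaged 29.6, 21.0 and 17.5 CPM, a diet fall of 0.49 on the log2 scale (adjusted p = 0.00643) with a gRNA difference of -0.26 that did not pass (adjusted p = 0.120). Fgf15 was too low to be tested and was at 0 in all chow libraries.

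Among 12 transcription factors that act on these genes, 7 were lower in HFHF control than in chow and none higher (median -0.43). In gRNA over HFHF control libraries 6 were higher and none lower (median 0.31). The shares of all genes tested were 28.9% lower in the first comparison and 19.6% higher in the second. Mafg, a small MAF repressor also listed as an FXR target, is counted among the diet falls, and its call was lost in 16 of 25 alternatives (adjusted p from 0.0221 to 0.198). Nr5a2, which encodes LRH-1, averaged 80.1, 44.1 and 55.8 CPM. It fell with diet by 0.86 on the log2 scale (adjusted p = 1.35e-07) and was higher in gRNA than in HFHF control libraries by 0.34 (adjusted p = 0.00327), still below every chow library. Ppargc1a, a coactivator of oxidative metabolism, averaged 10.5, 8.41 and 21.8 CPM, with every gRNA library above every HFHF control library (log2 fold change 1.37, adjusted p = 2.79e-05). Ppara, the fatty acid receptor, averaged 91.6, 90.3 and 156 CPM, with no overlap between the gRNA and HFHF control groups (log2 fold change 0.79, adjusted p = 4.29e-06). Nr1i3, the receptor CAR, averaged 214, 83.9 and 146 CPM and passed in both directions (adjusted p = 0.000173 and 0.00989). Vdr was too low to be tested and was at 0 in all gRNA libraries.

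Of 9 other FXR targets tested, 5 were lower and 3 higher in HFHF control than in chow (28.9% and 28.1% of all genes tested). In gRNA against HFHF control libraries 2 were higher and 2 lower, a share near that of all genes tested (19.6% higher and 19% lower). Abcb11, the bile salt export pump, averaged 842, 386 and 481 CPM. It fell with diet by 1.13 on the log2 scale (adjusted p = 2.15e-06), and its gRNA difference of 0.32 did not pass (adjusted p = 0.0697). Apoc2, an activator of lipoprotein lipase, rose with diet by 1.92 (adjusted p = 8.38e-08). Pltp, the phospholipid transfer protein, fell from 44.0 to 19.6 CPM between HFHF control and gRNA libraries (log2 fold change -1.16, adjusted p = 5.43e-05). Fetub, a liver-secreted cystatin, averaged 375, 178 and 239 CPM, with an adjusted p of 0.00976 for gRNA over HFHF control. Mafg and Osgin1 were the other called genes of this comparison, at 0.36 (adjusted p = 0.00347) and -0.65 (adjusted p = 0.0378), and Osgin1 was lost in 11 of 25 alternatives (adjusted p from 0.0120 to 0.0809).

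Of 9 carriers that move bile acids and organic anions, 6 were lower and 1 higher in HFHF control than in chow (median -0.44). In gRNA over HFHF control libraries 4 were higher (median 0.56). Over all genes tested, 28.9% were lower and 28.1% higher in the first comparison. In the second, 19.6% were higher and 19% lower. Slc10a1, the main sodium-dependent uptake carrier NTCP, averaged 519, 155 and 326 CPM, with every gRNA library above every HFHF control library (log2 fold change 1.07, adjusted p = 1.50e-05). The LXR list holds the sterol receptors LXR and their targets, among them sterol exporters and lipid-modifying genes. Of its 9 genes, 6 were higher and none lower in HFHF control than in chow (median 0.40, against 28.1% of all genes called higher), and 4 were higher and 1 lower in gRNA than in HFHF control libraries (median 0.07). Abcg5, a subunit of the canalicular sterol exporter, averaged 41.8, 179.97 and 273 CPM (diet log2 fold change 2.10; gRNA over HFHF control 0.60, adjusted p = 0.000866). Its partner Abcg8 averaged 55.0, 149.98 and 259 CPM, with no overlap between the gRNA and HFHF control groups. The 1 lower gene was Abcg1, at 20.2 CPM in HFHF control and 12.9 in gRNA libraries (adjusted p = 0.00571).

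Of 5 genes tested that detoxify bile acids, 4 were lower in HFHF control than in chow (median -1.07). In gRNA over HFHF control libraries 3 were higher (median 0.43). Among all genes tested, 28.9% were called lower in the first comparison and 19.6% higher in the second. Sult2a8, a bile acid sulfotransferase of mouse liver, ran from 936 to 1099.9 CPM in chow, from 22.4 to 128 in HFHF control and from 182 to 716 in gRNA libraries, with no overlap between any of the groups. It fell with diet by 4.11 on the log2 scale (SE 0.44, adjusted p = 4.28e-07), and was higher in gRNA than in HFHF control libraries by 2.91 (SE 0.40, adjusted p = 1.93e-05). Ugt1a1, which glucuronidates bilirubin and bile acids, averaged 710.03, 361 and 487 CPM, and Cyp2b10, a CAR target, 11.4, 0.71 and 2.87 CPM; both passed in the same directions. Sult2a8 has close copies and Ugt1a1 shares exons with other Ugt1a genes, so their counts are uncertain.

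**Figure D5:**
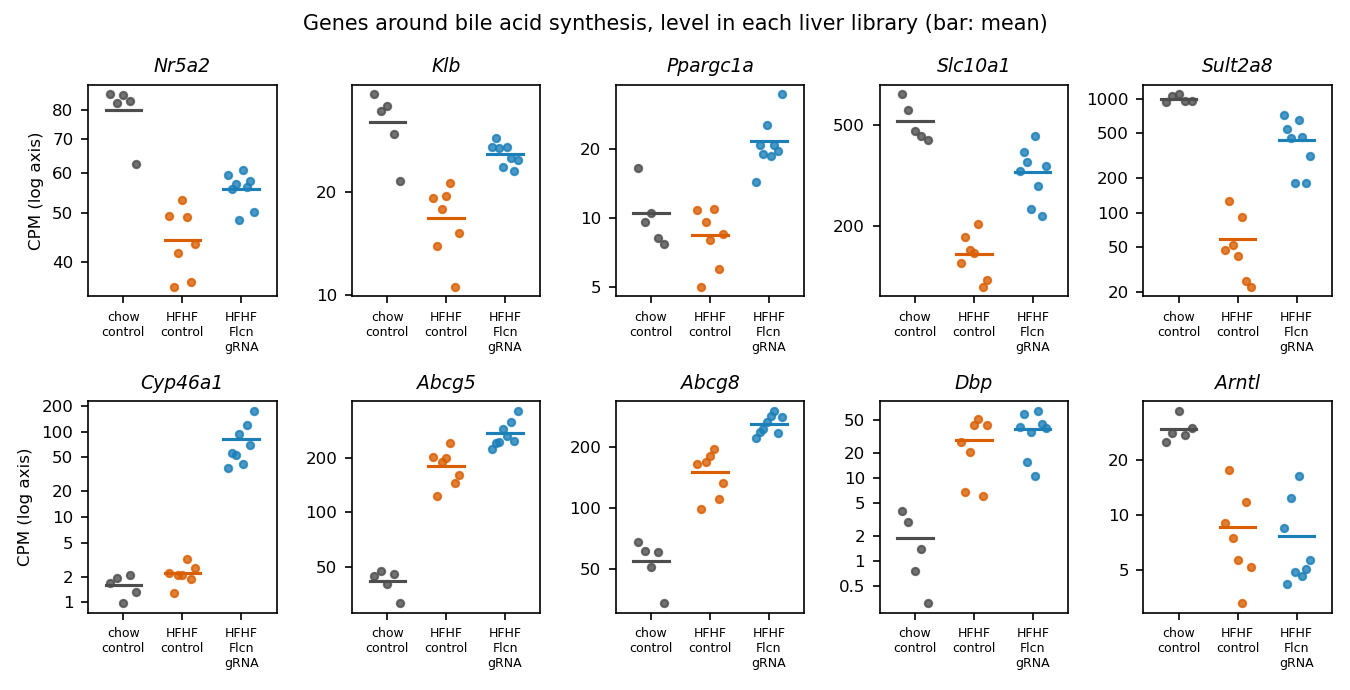
Level in CPM (vertical axes, log scale) of 10 genes around the pathway in each chow control (n = 5), HFHF control (n = 7) and HFHF Flcn gRNA (n = 8) library; points are libraries and bars group means. Sult2a8 shows 3 separate groups, Cyp46a1 is high only in the gRNA group (37.2 to 176 CPM), and Dbp and Arntl separate chow from both HFHF groups.

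Cyp7a1 transcription is known to depend on the circadian clock, and the labels give no time of collection. Dbp, a clock-driven activator of Cyp7a1, ran from 0.311 to 4.04 CPM in chow, from 6.03 to 51.8 in HFHF control and from 10.6 to 64.9 in gRNA libraries. Arntl, which encodes BMAL1, ran from 25.1 to 37.0 CPM in chow, from 3.295 to 17.4 in HFHF control and from 4.17 to 16.2 in gRNA libraries. Both groups on HFHF diet were thus apart from chow for both genes (HFHF control against chow log2 fold change 3.89, adjusted p = 0.000211, for Dbp and -1.79, adjusted p = 0.000417, for Arntl). Between the gRNA and HFHF control groups neither passed (0.45, adjusted p = 0.483, and -0.15, adjusted p = 0.767). Of 12 clock genes, 4 were higher and 4 lower in HFHF control than in chow, beside 28.1% higher and 28.9% lower of all genes tested. Between gRNA and HFHF control libraries 2 of the 12 were higher and none lower, beside 19.6% of all genes tested called higher. The gene of smallest p was Bhlhe41, at low level, from 0.854 to 4.19 CPM in HFHF control and from 3.46 to 12.8 in gRNA libraries. Its log2 fold change stayed between 1.50 and 1.91 when 1 library was left out. It passed in 25 of 25 alternatives (adjusted p from 4.00e-06 to 0.00177). The part of collection time or clock state in the differences of the 10 genes, in any of the comparisons, was not tested.

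Markers of other cell types also moved with the groups. The summed level of 6 cholangiocyte markers ran from 24.8 to 35.7 CPM in chow, from 93.4 to 228 in HFHF control and from 30.5 to 80.8 in gRNA libraries. Of 6 stellate cell markers the sums were 74.0 to 100.04, 182 to 271 and 88.2 to 144 CPM, and of 5 monocyte-derived macrophage markers 1.91 to 5.87, 34.7 to 129 and 42.7 to 160.5 CPM. Single markers and sums differed for the macrophages: of the 5, all rose from chow to HFHF control, and 4 were lower and none higher in gRNA than in HFHF control libraries (median log2 fold change -1.68). Of 4 cholangiocyte markers tested, 4 were lower in gRNA than in HFHF control libraries, and of 6 stellate cell markers 4 were lower and none higher. Other cell types differed in the same comparison. Kupffer cells, the resident macrophages, had 3 of 5 markers higher and none lower (median 0.66). Sums and single markers differed for them too, as the sums had medians of 126 CPM in chow, 242 in HFHF control and 207 in gRNA libraries. Their ranges overlapped between HFHF control (116 to 310 CPM) and gRNA libraries (141 to 313 CPM). Endothelial cells also had 3 of 5 higher and none lower (median 0.55). Lymphocytes had 2 of 6 higher and 4 lower, and all 3 neutrophil markers tested were lower. These calls rest on low levels. The 6 lymphocyte markers together ran from 5.65 to 14.5 CPM in HFHF control and from 4.82 to 8.87 in gRNA libraries. The 4 neutrophil markers listed together ran from 7.09 to 11.1 and from 2.92 to 9.19 CPM. None of the cholangiocyte, stellate cell and monocyte-derived macrophage markers was at 0 in a whole group. The neutrophil marker Ly6g and the ileal markers Fabp6 and Fgf15 were at 0 in chow. Of 7 hepatocyte markers, 5 were lower and none higher in HFHF control than in chow (median -0.42), and 4 were higher and 1 lower in gRNA than in HFHF control libraries (median 0.25). Of 9 pericentral hepatocyte genes, the zone in which Cyp7a1 is known to be expressed, 6 were lower with diet (median -1.10) and 4 higher in gRNA than in HFHF control libraries (median 0.06). Of 8 periportal genes, 5 were lower and 1 higher with diet (median -0.76), and 2 were higher in gRNA than in HFHF control libraries (median 0.06). Median sums in chow, HFHF control and gRNA libraries were 10235, 4486 and 7947 CPM for pericentral genes and 7593, 4467 and 4530 for periportal genes. The pericentral sums overlapped between HFHF control (3243 to 7299 CPM) and gRNA libraries (6719 to 9948 CPM). Between HFHF control and chow, 28.9% of all genes tested were called lower and 28.1% higher. Between gRNA and HFHF control libraries the shares were 19.6% higher and 19% lower. The part of cell makeup in the differences of the 10 genes was not tested.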

How the data were processed

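Poly(A) libraries from liver were sequenced as single-end reads, per the labels' protocols, with adapters that carry molecular identifiers. The deposited table holds expected counts per Ensembl gene that need not be whole (77.8% of values of at least 1 were whole), made on GRCm38 per the submitters' processing notes; the sources used here do not say how reads were aligned, counted, assigned to strands or collapsed by identifier. The table has 32400 genes and 22 construct features holding 7 counts in all, which were left out, and 1 column that matched no sample and was not used. Symbols for 32325 genes came from GENCODE M21, and 6 of the 10 genes matched a RefSeq promoter window.

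Counts were rounded, filtered with filterByExpr, scaled by TMM and fitted with edgeR 4.0.16 (quasi-likelihood, 3 groups in 1 fit, 17 residual degrees of freedom, Benjamini-Hochberg adjustment) in R 4.3.3. Standard errors are the absolute log2 fold change over the square root of F. Within-group SDs, relations and likeness used log2 CPM with a prior count of 2, and ratios CPM + 0.5. The fit was also run on simulated data, whose outcome is not given here and from which nothing is drawn. All 10 genes, Flcn, up to 4 genes of smallest p per list and comparison, genes at 0 in a group, and the 3 genes most like Cyp7a1, Cyp8b1, Cyp7b1 and Nr0b2 could be named; 1 gene that this rule selects is not reported here. The lists around the 10 genes, and the genes named from them, were chosen with earlier results of these data known. The 10 genes themselves were chosen by symbol, as stated at the opening. Alternatives were other scalings, no filter, DESeq2 1.42.0, a fit of 2 groups, other pseudocounts and leaving out each library.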

Additional observations from a re-analysis of the deposited data

Results flagged for a closer look

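In 36 groups of 5 to 8 libraries (each of the 10 genes and both hydroxylase ratios in the 3 groups), the highest or lowest library was compared with its nearest neighbour by Dixon's test, which chance alone passes in about 1 of 20 groups. The HFHF control level of Cyp7b1 passed, with replicate 2 at 99.1 CPM and a gap of 0.574 of the group's range to the next library. The log2 ratio of Cyp7b1 to Cyp7a1 in chow passed too, with replicate 3 at 0.404 and a gap of 0.72 of the range. That library had the highest Cyp7a1 level of the study, 227 CPM.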

How the results depend on the processing

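No paired analysis was possible because the replicate numbers are accession order and pair no libraries. Each of the 10 genes was refitted under 25 alternatives in each of 3 comparisons; of these 750 values, 717 kept their direction and side of the threshold, 25 lost the call, 3 gained it and 5 changed sign. The number of the 10 genes called stayed at 9 to 10 between HFHF control and chow, 6 to 7 between gRNA and HFHF control, and 6 to 8 between gRNA and chow. Values that crossed 0 were all without a call. Leaving out 1 library moved the log2 fold change between gRNA and chow from -0.0709 to 0.0268 for Nr1h4, from -0.68 to 0.0934 for Cyp7a1 and from -0.0163 to 0.0841 for Slco1b2, that between gRNA and HFHF control from -0.406 to 0.117 for Arntl, and that between HFHF control and chow from -0.165 to 0.111 for Flcn and from -0.0430 to 0.0655 for Ppara. Ppara was also at 0.0705 with upper-quartile scaling and 0.0160 with no filter in that comparison. Leaving out 1 library moved the log2 ratio of Cyp8b1 to Cyp7a1 between HFHF control and chow from -0.477 to 0.0563. The ratio of Cyp7b1 to Cyp7a1 moved from -0.654 to 0.0513 between gRNA and HFHF control, and from -2.08 to -1.38 between HFHF control and chow. The cause was not tested. Upper-quartile scaling gave 37.8% of called genes as higher between gRNA and HFHF control (50.7% with TMM) and 60.7% between HFHF control and chow (49.4% with TMM), with 6 and 10 of the 10 genes called as before.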
